A study of Mus musculus with 24 samples.

Results

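Skin of C3H/HeMs mice was set against skin of A/J mice, using the 4 skin arrays of each strain, so that 8 of the 24 arrays of the series entered the comparison. The arrays were chosen by the strain and tissue in their labels and paired by time. Each pair held 1 C3H/HeMs and 1 A/J array of unirradiated controls, or of skin taken 1 h, 12 h or 72 h after 30 Gy given locally to a hind leg. All mice were females of 12 to 13 weeks, both strains were inbred, no genetic change was named in the labels, and each array held RNA pooled from 3 mice, with skin taken in its full thickness. Skin RNA was hybridised against a common reference RNA mixed from 10 organs. The 4 skin arrays of C57BL/6J at the same times shared the estimate of the spread, and the 4 lung arrays each of C3H/HeMs and A/J (thorax irradiated with 10 Gy) served as a readout that the skin arrays had no part in. Every value below is a log2 ratio of skin (or lung) RNA over the reference, centred on the median of its array, so that a strain difference of 1 is 2-fold.

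Inbred strains carry fixed alleles, and a gene whose regulatory or coding sequence differs between them can differ in RNA level in every animal of a strain. Whole skin is also a mixture of tissues: hair follicles pass through cycles of growth and rest that switch hair keratin genes on and off over wide stretches of the coat, and a thin sheet of striated muscle lies beneath the fat layer of mouse skin, so that a pool can hold more or less of either. A difference tied to the strain may be of like size at every time, whereas one tied to the follicle stage or the muscle in a pool could move from pair to pair. A strain difference may also change with time, and strains may differ steadily in tissue content. Evenness alone therefore cannot tell these apart. In bulk RNA of this kind, more cells of a type and more RNA per cell cannot be told apart.

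The arrays reported 9275 probes, which gave 8750 features, 5908 of them with a gene symbol. Skin markers fitted the labelled tissue: all 16 measured genes of epidermal differentiation and all 21 of basal keratinocytes had means above the reference in C3H/HeMs skin and in A/J skin. Correlations over all features lay between 0.772 and 0.926 among the C3H/HeMs skin arrays and between 0.882 and 0.946 among the A/J skin arrays. With 1 pool per strain and time, the 4 times stood in for repeats of a strain, so every test below weighs a strain difference against how that difference varied from time to time.

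Across all 8750 features, 22 (0.251%) differed between C3H/HeMs and A/J skin at an adjusted p under 0.05, by limma's moderated test with time as a block. Of these, 10 (0.114%) were higher and 12 (0.137%) were lower in C3H/HeMs skin. All 22 had the same sign on all 4 pairs, and for all 22 the 4 C3H/HeMs values did not overlap the 4 A/J values. Over all features, 844 (9.65%) showed no overlap. The 22 were picked by a test on these same arrays, so their shared sign and lack of overlap follow largely from that choice. The 11 named genes among the 22 were Mup9, Tspan8, Zfp945, Klk1, Rbp2, Scyl2 and Mrps12, which were higher, and Xdh, Shisa2, Angptl7 and Fgfr1op2, which were lower. The other 11 features had no symbol (8) or several (3), and 3 of them were higher and 8 lower. Without regard to adjustment, 1664 features had p under 0.05, with 547 higher and 1117 lower. Under quantile normalization the split of calls turned, with 33 higher and 13 lower.

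**Figure D1:**
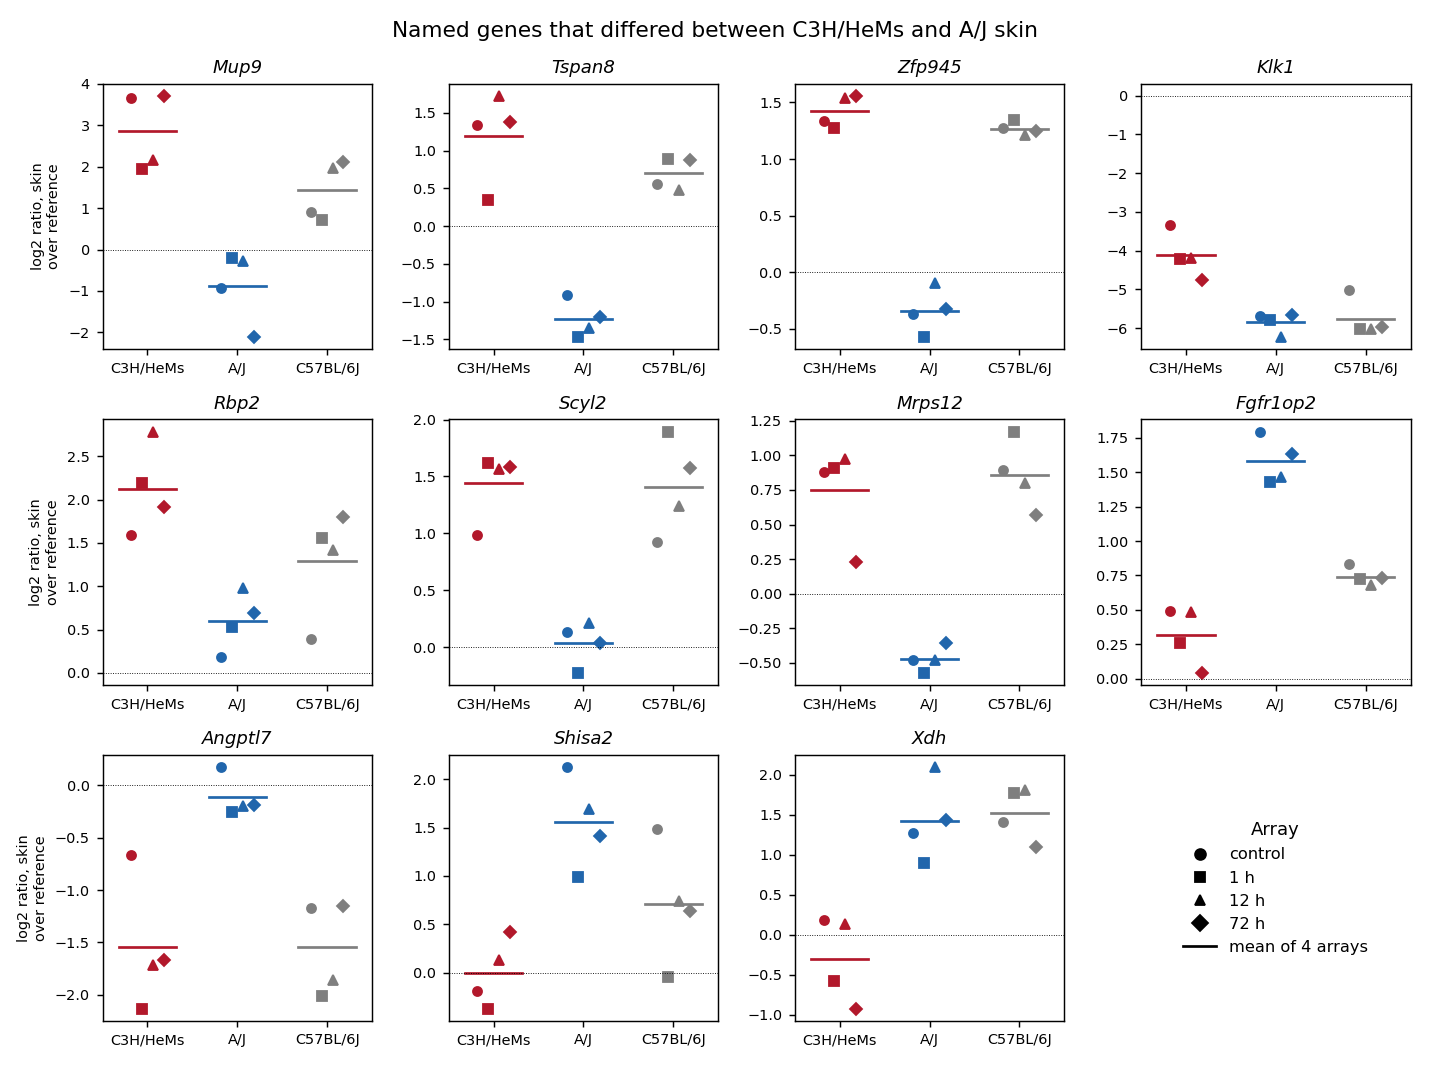
Log2 ratio of skin over the common reference on every skin array for the 11 named genes that differed between C3H/HeMs and A/J, with C57BL/6J beside them. Marker shapes give the control and the times after irradiation, and bars are means of 4 arrays; in every panel the C3H/HeMs points lie apart from the A/J points.

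Among secreted and membrane proteins, the largest difference belonged to Mup9, a major urinary protein of the lipocalin family that carries small volatile molecules. Mup9 stood at 3.66, 1.95, 2.16 and 3.71 in C3H/HeMs skin (control, 1 h, 12 h and 72 h), against -0.93, -0.19, -0.28 and -2.11 in A/J skin. The lowest C3H/HeMs array was thus above the highest A/J array, and the control and 72 h pools of C3H/HeMs were the highest of the 8. The mean difference was 3.75 ± 0.58 (SE; 13.4-fold, adjusted p = 0.0422), but its size moved by 3.69 between the pairs, more than for any other named gene called. Mup genes form a family of near-identical copies, so which copy the probe reported is uncertain. A feature with no single symbol, also called higher, showed a difference of 3.27 ± 0.44 (adjusted p = 0.0268).

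Tspan8, a tetraspanin of the cell surface, stood at 1.35, 0.34, 1.73 and 1.38 in C3H/HeMs skin, against -0.91, -1.47, -1.35 and -1.20 in A/J skin. It was above the reference on every C3H/HeMs array and below it on every A/J array, a difference of 2.43 ± 0.27 (5.39-fold, adjusted p = 0.0135). Klk1, a tissue kallikrein protease, was far below the reference in both strains, at -3.33, -4.21, -4.18 and -4.75 in C3H/HeMs skin and at -5.68, -5.80, -6.23 and -5.66 in A/J skin. All 4 C3H/HeMs pools were above all 4 A/J pools, by 1.72 ± 0.23 (3.30-fold, adjusted p = 0.0268). Without a test of probe signal against background, the size of a difference at such low ratios is uncertain. Kallikreins are another family of close copies, and the member that the probe reported is uncertain.

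Zfp945, a zinc finger protein, had the smallest adjusted p of all features and, among the 11 named calls, the most even difference. Its values were 1.34, 1.28, 1.54 and 1.56 in C3H/HeMs skin, against -0.37, -0.57, -0.09 and -0.33 in A/J skin. The strains lay far apart with little scatter within either, the difference was 1.77 ± 0.16 (3.41-fold, adjusted p = 0.00775), and the 4 pair differences spanned only 0.26. The median span was 1.02 over the 22 called features, where the lowest was 0.24 for a feature without a single symbol.

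Mrps12, a protein of the small subunit of the mitochondrial ribosome, was at 0.88, 0.91, 0.97 and 0.23 in C3H/HeMs skin and at -0.48, -0.57, -0.48 and -0.36 in A/J skin. The C3H/HeMs pool at 72 h was the nearest to A/J, and the difference was 1.22 ± 0.20 (2.33-fold, adjusted p = 0.0476). Scyl2, a pseudokinase found on clathrin-coated vesicles, was at 0.99, 1.62, 1.57 and 1.58 in C3H/HeMs skin and at 0.13, -0.23, 0.21 and 0.04 in A/J skin. Here the C3H/HeMs control pool was the lowest of its strain and still above every A/J pool, and the difference was 1.40 ± 0.22 (2.64-fold, adjusted p = 0.0475).

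Among enzymes and carriers of small molecules, 1 gene was higher and 1 lower. Rbp2, a cellular retinol-binding protein, was at 1.59, 2.19, 2.79 and 1.91 in C3H/HeMs skin and at 0.19, 0.53, 0.98 and 0.70 in A/J skin. Both strains had their highest value at 12 h and their lowest in the control, the strains stayed apart at each time, and the difference was 1.52 ± 0.23 (2.87-fold, adjusted p = 0.0374). Xdh, the xanthine oxidoreductase that carries out the last steps of purine breakdown, was at 0.19, -0.58, 0.13 and -0.92 in C3H/HeMs skin and at 1.28, 0.89, 2.09 and 1.43 in A/J skin. All A/J pools were above the reference and above all C3H/HeMs pools, so that Xdh was lower in C3H/HeMs, with a difference of -1.72 ± 0.25 (adjusted p = 0.0374).

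The other named genes called lower were Shisa2, Angptl7 and Fgfr1op2. Shisa2, a protein of the endoplasmic reticulum that restrains Wnt and FGF receptors, was at -0.19, -0.37, 0.13 and 0.43 in C3H/HeMs skin and at 2.12, 0.99, 1.69 and 1.42 in A/J skin (difference -1.55 ± 0.25, adjusted p = 0.0475). Angptl7, a secreted angiopoietin-like protein, was at -0.67, -2.14, -1.71 and -1.67 in C3H/HeMs skin and at 0.17, -0.25, -0.20 and -0.18 in A/J skin (difference -1.43 ± 0.21, adjusted p = 0.0374). Fgfr1op2, known as a fusion partner of the receptor FGFR1, was at 0.49, 0.26, 0.48 and 0.04 in C3H/HeMs skin and at 1.80, 1.43, 1.46 and 1.64 in A/J skin (difference -1.26 ± 0.16, adjusted p = 0.0268). In none of these genes did a C3H/HeMs pool reach the lowest A/J pool.

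C57BL/6J skin placed these differences. The C57BL/6J mean lay nearer to C3H/HeMs for 13 of the 22 features and nearer to A/J for 9, and for 19 it lay between the other means. Of the named genes 8 of 11 were nearer to C3H/HeMs. Zfp945, Scyl2 and Mrps12 averaged 1.27, 1.41 and 0.86 in C57BL/6J skin, close to their C3H/HeMs means of 1.43, 1.44 and 0.75. Xdh averaged 1.52 in C57BL/6J skin, against -0.30 in C3H/HeMs and 1.42 in A/J, and Klk1 averaged -5.76 in C57BL/6J, against -4.12 in C3H/HeMs and -5.84 in A/J. The 22 features were chosen for a wide gap between C3H/HeMs and A/J, so a mean between them is likely from that choice alone. Shares over all features were not worked out, and these placements are descriptions that were not tested.

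The 22 calls rested on few arrays. With the 8 arrays of both strains alone, limma called 0 features, with 1199 at an unadjusted p under 0.05. Leaving out 1 C3H/HeMs array gave 2 calls (control), 4 (1 h), 470 (12 h) or 20 (72 h), of which 1, 4, 22 and 10 were among the 22. Leaving out 1 A/J array gave 0 calls (control, with 1117 at an unadjusted p under 0.05), 0 (1 h, with 1190), 215 (12 h, all 22 among them) or 7 (72 h, 5 of them among the 22). Zfp945 kept its call in 6 of these 8 fits and lost it without the A/J control (adjusted p = 0.0727) or the A/J 1 h array (adjusted p = 0.0595). Tspan8 kept its call in 5, losing it also without the C3H/HeMs control (adjusted p = 0.0547), and Klk1 kept its call in 4. The other named genes kept theirs in 2 or 3, the fits without a 12 h array among them.

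A criterion of size without a test was applied to the same 4 pairs. Its overlap with the calls is thus a description and no separate support. A difference of at least 2-fold on each of the 4 pairs was found for 8 features higher in C3H/HeMs (0.0914%) and 10 lower (0.114%), and 12 of these 18 were among the 22 calls. The 6 named genes higher on this criterion were Mup9, Tspan8, Zfp945, Rbp2, Actc1 and Rps14, and the 2 lower were Xdh and Tbc1d8. Tbc1d8, a protein with the TBC domain of Rab GTPase-activating proteins, had pair differences of -1.19, -1.42, -1.05 and -3.51, of which the 72 h pair was the largest. Its mean difference of -1.79 ± 0.44 did not pass the test (adjusted p = 0.0976). Far more features kept a sign than a size: 665 (7.6%) were higher and 1259 (14.4%) lower in C3H/HeMs on all 4 pairs, and 291 (3.33%) and 553 (6.32%) did so without overlap.

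Skeletal muscle genes were higher in C3H/HeMs skin on the control and 1 h pairs and not on the later ones. Of 41 measured genes of sarcomere, calcium handling and muscle energy supply, 29 were at least 2-fold higher on the control pair and 25 on the 1 h pair, with 0 lower on either. On the 12 h pair 3 were at least 2-fold higher and 12 lower, and on the 72 h pair 1 was higher and 4 lower. Over all features, the shares at least 2-fold higher on the 4 pairs were 5.1%, 5.89%, 5.58% and 6.16%, and the shares at least 2-fold lower were 11.8%, 15.1%, 5.41% and 8.78%. The median pair difference of the muscle list was 1.80, 1.22, -0.34 and -0.10, beside -0.06, -0.11, -0.01 and -0.16 over all features. None of the 41 was called.

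The mean log2 ratio of the 41 muscle genes, used here as a muscle score, was -0.05, -0.41, -1.82 and -1.62 in C3H/HeMs skin and -1.70, -1.80, -1.41 and -1.49 in A/J skin. The C3H/HeMs control and 1 h pools were the highest of all 12 skin arrays and the C3H/HeMs 12 h pool was the lowest, while the A/J pools lay close together. C57BL/6J pools had scores of -0.91, -0.93, -1.18 and -1.09.

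**Figure D2:**
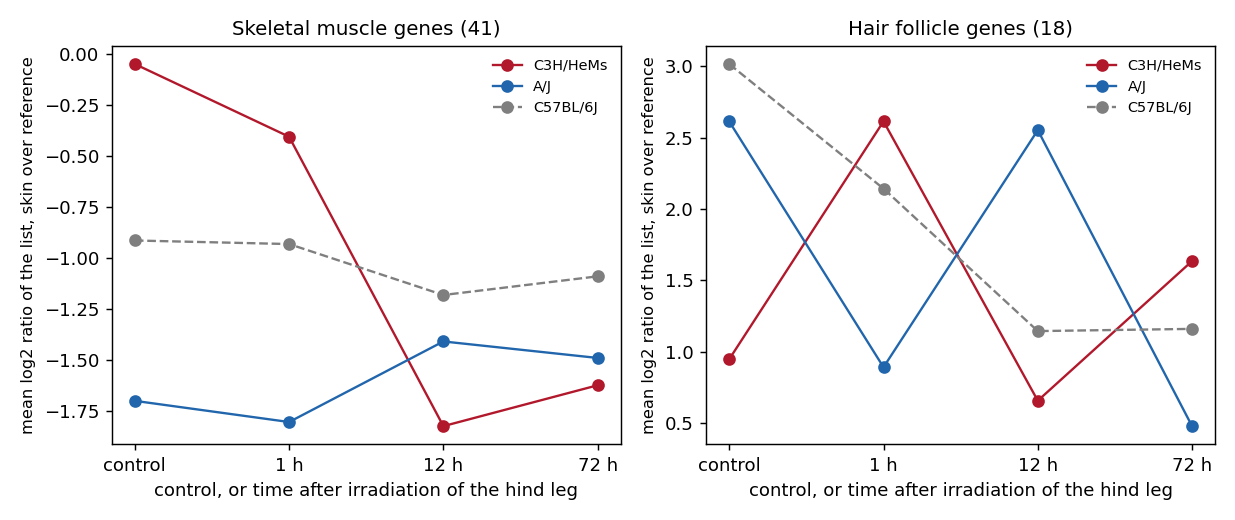
Mean log2 ratio over the reference of 41 skeletal muscle genes (left) and 18 hair follicle genes (right) on each skin array, by control or time after irradiation; each point is 1 pool of 3 mice. C3H/HeMs stands far above A/J in muscle score on the control and 1 h pools, and the hair scores of C3H/HeMs and A/J swap places from pair to pair.

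Genes of fast-twitch fibres followed this order. Tnni2, the fast inhibitory troponin subunit, was at 3.41, 2.88, -0.48 and -0.44 in C3H/HeMs skin, against -0.41, -0.91, 0.66 and 0.13 in A/J skin. Pvalb, the calcium buffer parvalbumin, was at 2.70, 1.72, -1.34 and -0.30 in C3H/HeMs skin, against -0.77, -1.52, 2.02 and -0.63 in A/J skin. For both, C3H/HeMs was far higher on the first 2 pairs and lower at 12 h, so the strains overlapped. Tnnt3 (fast troponin T), Mylpf (fast myosin light chain) and Myh1 (a fast myosin heavy chain) had control pair differences of 3.46, 3.55 and 3.16 and 12 h pair differences of -1.61, -1.84 and -0.94.

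Some muscle genes did not follow the fast-twitch genes. Actc1, the cardiac actin that is also made in immature and slow muscle, was at -1.07, -1.76, -2.07 and -2.45 in C3H/HeMs skin, against -2.88, -2.86, -3.20 and -4.01 in A/J skin. It was more than 2-fold higher on every pair, without overlap, with a mean difference of 1.40 ± 0.28 that missed the threshold (adjusted p = 0.0833). Acta1, the skeletal actin, had pair differences of 2.39, 1.94, 1.29 and 0.92 (mean 1.64 ± 0.35, adjusted p = 0.0875). Tnnc1 (slow and cardiac troponin C), Atp2a2 (the calcium pump of slow and cardiac muscle) and Myl3 (a slow myosin light chain) were also higher on all 4 pairs, by means of 1.14, 0.73 and 0.66, and none of them was called. Actin genes resemble each other closely, so which actin each probe reported is uncertain. Actn3, the fast-fibre alpha-actinin, was the only muscle gene of the 41 that was lower on all 4 pairs, beside 14.4% of all features. It was at 3.01 to 3.95 in C3H/HeMs skin and 3.85 to 4.41 in A/J skin (difference -0.62 ± 0.28, adjusted p = 0.269). The muscle score was below 0 on every pool, although 11 of the 41 genes had C3H/HeMs means above the reference and 4 had A/J means above it. A list mean does not settle the level of a single gene, so whether the Actn3 probe reported muscle is uncertain and was not tested.

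Hair follicle genes were lower in C3H/HeMs skin on the control and 12 h pairs and higher on the 1 h and 72 h pairs. Of 18 measured genes of hair keratins, inner root sheath and matrix, 10 were at least 2-fold lower in C3H/HeMs on the control pair and 11 on the 12 h pair, with 0 higher on either. On the 1 h pair 12 were at least 2-fold higher and 0 lower, and on the 72 h pair 7 were higher and 0 lower. The list's median pair differences were -1.32, 1.48, -1.09 and 0.34, and none of the 18 was called. The pools of both strains varied: the mean log2 ratio of the 18 genes, used as a hair score, was 0.95, 2.61, 0.66 and 1.64 in C3H/HeMs skin and 2.61, 0.89, 2.55 and 0.48 in A/J skin.

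Krt33b, a keratin of the hair shaft, was at 0.27, 6.18, -0.17 and 3.73 in C3H/HeMs skin and at 5.79, 1.95, 6.52 and -0.60 in A/J skin. Each strain had high and low pools, never at the same time, so the pair differences were -5.52, 4.23, -6.69 and 4.33 and the strains overlapped fully. Krtap14, a keratin-associated protein of the hair shaft, had pair differences of -5.64, 5.11, -6.29 and 4.69, the widest swing among the muscle and hair genes. The Krtap14 values of the C3H/HeMs 1 h and A/J 12 h arrays had reached the limit of the deposited ratio, so those differences are understated. Foxn1, the transcription factor lost in nude mice that drives hair keratin genes, was at 1.16, 3.48, 1.41 and 3.09 in C3H/HeMs skin and at 3.33, 1.65, 3.26 and 1.15 in A/J skin.

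Regulators of the follicle had the same order of signs up to 12 h. Wif1, a secreted inhibitor of Wnt, had pair differences of -1.65, 2.40, -1.14 and 2.04. Lef1, a transcription factor of the Wnt pathway in the hair matrix, had -1.45, 1.58, -1.05 and -0.15, and Krt71, an inner root sheath keratin, had -1.19, 2.44, -1.41 and -0.38, so Lef1 and Krt71 were nearer to level at 72 h. Gata3, a transcription factor of the inner root sheath, was the only follicle gene of the 18 with 1 sign on all 4 pairs (mean -0.41 ± 0.21, adjusted p = 0.328). With 1 pool for each strain and time, the follicle stage of the mice, the time and the pool cannot be told apart.

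**Figure D3:**
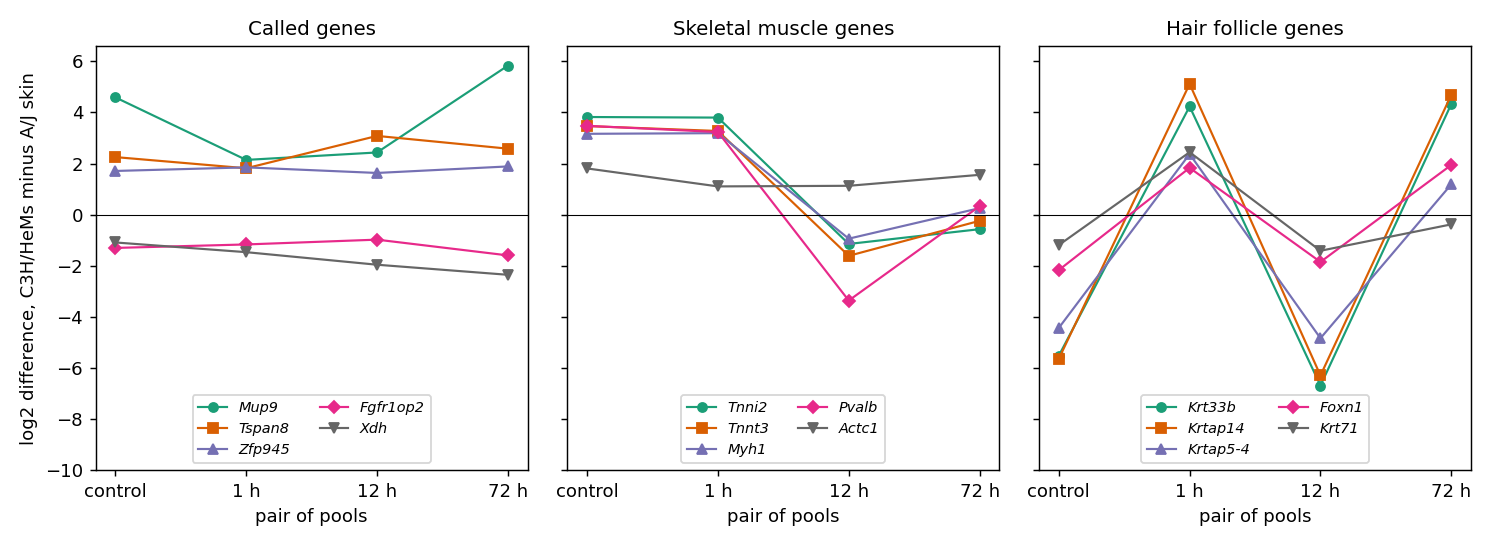
Log2 difference of C3H/HeMs minus A/J skin on the control, 1 h, 12 h and 72 h pairs for 5 called genes (left), 5 skeletal muscle genes (middle) and 5 hair follicle genes (right); lines join pairs of the same gene. The called genes keep their side of 0, most muscle genes are high on the first 2 pairs only, and hair genes cross 0 between every pair except Krt71 between 12 h and 72 h.

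The span between the highest and the lowest pair difference put numbers on this contrast. Its median was 2.28 for the muscle list and 3.06 for the hair list, beside 1.02 for the 22 called features and 1.09 for all features. Zfp945 had a span of 0.26, Rbp2 and Fgfr1op2 of 0.59 and 0.62, and Mrps12 and Scyl2 of 0.90 and 0.99. Angptl7, Xdh, Tspan8, Shisa2 and Klk1 had spans of 1.05 to 1.44. Mup9, at 3.69, had a wider span than the median of the muscle or the hair list, so its difference kept its sign but not its size. An even difference is part of what passes a test with pairs as repeats, so the low span of the calls is a description.

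The muscle and hair scores were then added to the fit as covariates. With the muscle score alone 2 features were called (0.0229%), Tspan8 with 2.69 and Zfp945 with 1.78 (adjusted p = 0.0328 for both). With the hair score alone 27 were called (0.309%), and 19 of the 22 were among them. With both scores, which left 4 residual degrees of freedom, limma called 0 features (0%), with 1217 at an unadjusted p under 0.05. The differences themselves moved little: Zfp945 was 1.80 (adjusted p = 0.0573), Tspan8 2.66 (0.0573), Mup9 3.69 (0.153) and Klk1 1.56 (0.118). Among the 11 named genes, Shisa2 lost the largest part of its difference, at -1.27 with both scores against -1.55 without them. A limma fit without the control and 1 h arrays, where the muscle scores of the strains lay furthest apart, called 0 features. It had 695 at an unadjusted p under 0.05 and a smallest adjusted p of 0.622. With only the 12 h and 72 h arrays left it had little power, so the lack of calls cannot be read as an effect of muscle content.

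Ribosomal protein genes were mostly higher in C3H/HeMs skin, by less than 2-fold at the median. Of 22 measured, 19 were higher in C3H/HeMs on all 4 pairs and 17 had no overlap, beside 7.6% and 3.33% of all features, and 0 were called. The median difference was 0.71, and it was smallest on the control pair (0.41) and larger at 1 h, 12 h and 72 h (0.61, 0.78 and 0.95). Members at least 2-fold higher numbered 2, 5, 7 and 8 on the 4 pairs. Rps3a1, of the small ribosomal subunit, was at 2.35, 2.19, 2.17 and 1.61 in C3H/HeMs skin, against 1.26, 0.85, 1.36 and 0.50 in A/J skin (difference 1.09 ± 0.20, adjusted p = 0.0680). Rps14, also of the small subunit, was at 1.29, 1.15, 1.42 and 0.64 in C3H/HeMs skin, against 0.10, -0.01, -0.31 and -0.57 in A/J skin (difference 1.32 ± 0.29, adjusted p = 0.0875). Rpl8 and Rpl21, of the large subunit, differed by 0.98 and 0.92. C57BL/6J averaged 1.26 for Rps3a1 and 0.72 for Rps14. In lung the list's median difference was -0.19. These genes have many processed copies in the genome, so a probe may report more than its own gene.

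Genes of mitochondrial respiration, which oxidise fuel and make ATP, were higher by a median of 0.38 over 41 measured, with 17 higher on all 4 pairs, 8 without overlap (7.6% and 3.33% over all features) and 0 called. Ndufb7 (complex I), Cycs (cytochrome c), Cox5b (complex IV) and Sucla2 (the citric acid cycle) differed by 0.71, 0.61, 0.69 and 0.75. The list's median in lung was -0.07. Its pair medians lay between 0.26 and 0.41.

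Genes of skin lipid had a median below 0 on every pair. The 13 measured genes of sebaceous glands and skin lipid had a median difference of -0.60 (pairs -0.67, -0.55, -0.59 and -0.48), with 5 lower on all 4 pairs, 3 without overlap (14.4% and 6.32% over all features) and 0 called. Scd1, the desaturase that makes monounsaturated fatty acids in sebocytes, was at 3.57, 3.11, 2.67 and 2.84 in C3H/HeMs skin, against 4.51, 4.98, 4.41 and 4.66 in A/J skin (difference -1.59 ± 0.30, adjusted p = 0.0721). Elovl3, an elongase of very long chain fatty acids, was at 2.69, 4.97, 2.08 and 4.45 in C3H/HeMs skin, against 5.07, 6.39, 5.71 and 5.16 in A/J skin (difference -2.03 ± 0.44, adjusted p = 0.0875). For both genes every C3H/HeMs pool was below every A/J pool. Plin2, a lipid droplet protein, was lower by a smaller amount (-0.60 ± 0.18, adjusted p = 0.129).

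Adipocyte genes had a median of -0.34 over 20 measured, with 0.21 on the control pair and -0.75, -0.66 and -0.74 on the later pairs. Cd36, a fatty acid transporter, was at -0.43, -0.42, -1.13 and -0.69 in C3H/HeMs skin, against 0.37, 0.44, 0.61 and 0.56 in A/J skin (difference -1.16 ± 0.26, adjusted p = 0.0875). Retnla, a resistin-like secreted protein, was at 2.92, 1.99, 1.22 and -0.03 in C3H/HeMs skin, against 2.94, 3.86, 3.14 and 2.44 in A/J skin (difference -1.57 ± 0.38, adjusted p = 0.0952). Cd36 did not overlap between the strains at any time, whereas Retnla was level in the control and apart later. None of the 20 passed the test.

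Lymphocyte genes were somewhat lower in C3H/HeMs skin, and this depended on the scaling. The T and NK cell list had a median of -0.30 over 22 measured and the B and plasma cell list -0.29 over 17, both with 0 called, and under quantile normalization the medians were 0.08 and 0.04. Cd6, a T cell receptor coreceptor, was at -1.54, -2.26, -1.84 and -1.90 in C3H/HeMs skin, against -0.91, -1.01, -1.12 and -0.58 in A/J skin (difference -0.98 ± 0.24, adjusted p = 0.0947). Cr2, the complement receptor of B cells, differed by -0.91 ± 0.23 (adjusted p = 0.0997). Among single genes of other lists, Mpo, the myeloperoxidase of neutrophil granules, differed by -1.31 ± 0.28 (adjusted p = 0.0875) and Cxcl9, an interferon-induced chemokine, by -1.50 ± 0.39 (adjusted p = 0.112).

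Hlf, a transcription factor of the PAR bZIP family under the circadian clock, came closest to the threshold of the list genes that were not called. It was at -0.62, -1.04, -0.84 and -1.31 in C3H/HeMs skin, against 0.32, 0.08, 0.14 and 0.20 in A/J skin, without overlap (difference -1.14 ± 0.19, adjusted p = 0.0505). Per1, a core clock gene, differed by -0.64 ± 0.24 (adjusted p = 0.197). The hour at which mice were killed is not in the labels, and its part in these values was not tested. Pdia3 and Calr, chaperones of the endoplasmic reticulum that help load MHC class I, were higher by 0.91 and 0.84 (adjusted p = 0.0875 and 0.0917).

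Epidermal genes differed little as groups, with medians of -0.20 for differentiation and 0.11 for basal keratinocytes and 0 called in either. Krt10, the keratin of the suprabasal layers, was at 4.49, 4.58, 5.24 and 6.51 in C3H/HeMs skin and at 5.73, 6.24, 5.46 and 6.37 in A/J skin. It was lower in C3H/HeMs on the control and 1 h pairs and near level later. Krt17, a keratin of the outer root sheath and of activated keratinocytes, differed by 0.80 ± 0.26 (adjusted p = 0.151). Krt16, a keratin of stressed epidermis, was at 4.70, 4.95, 5.50 and 1.86 in C3H/HeMs skin and at 2.92, 3.02, 2.95 and 3.00 in A/J skin. It was higher in C3H/HeMs at all times but 72 h, and the mean difference did not pass the test (1.28 ± 0.64, adjusted p = 0.312). The other 18 lists, among them fibroblast, vessel, nerve, mast cell, macrophage, interferon, p53 target, proliferation and cholesterol genes, had medians between -0.24 and 0.26, and of their members 1 was called, Xdh in the list of xenobiotic metabolism.

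**Figure D4:**
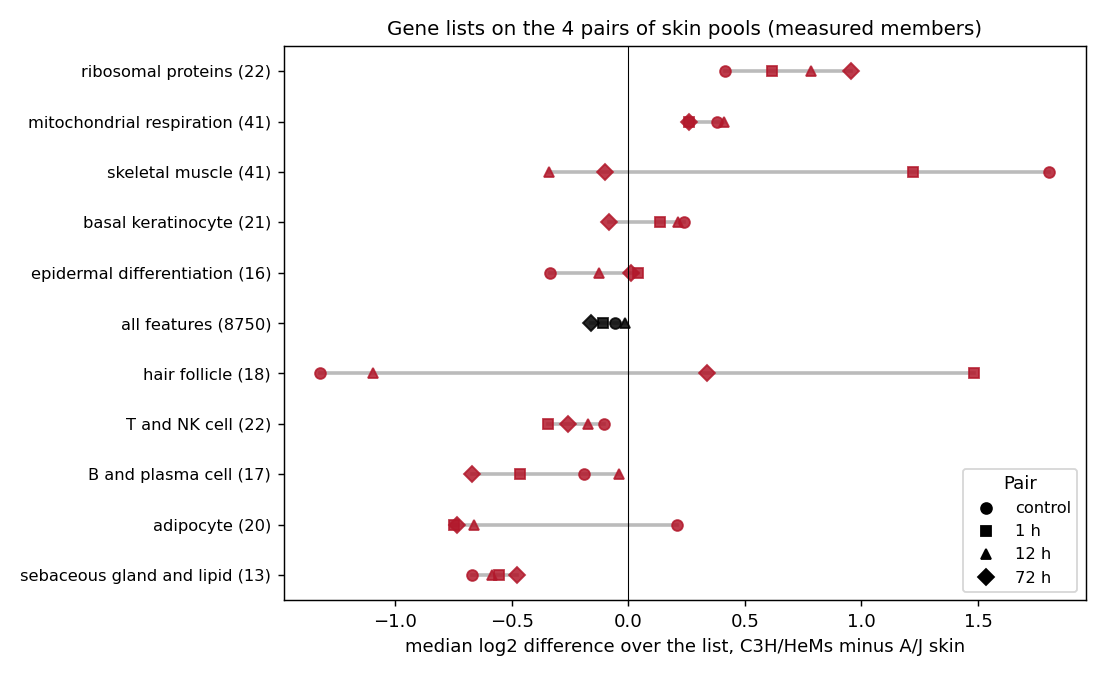
Median log2 difference of C3H/HeMs minus A/J skin over the measured members of 10 gene lists and over all features, on each of the 4 pairs; the number of members stands in parentheses and lines span the pairs. Ribosomal and mitochondrial lists stay above 0 and the sebaceous list below it on all pairs, while the muscle and hair lists cross 0.

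Genes at which inbred strains are known to carry differing alleles were examined as a list of their own, of which 14 were measured and Xdh alone was called. The nonagouti gene (a), which sets the banding of hair pigment and whose agouti allele is carried by C3H mice, was at -0.60, -0.28, 0.51 and 0.36 in C3H/HeMs skin, against 0.92, 1.47, 0.68 and 0.67 in A/J skin. The groups did not overlap, but the difference was small at 12 h and 72 h (mean -0.94 ± 0.36, adjusted p = 0.209). Alad, an enzyme of haem synthesis, differed by 0.56 ± 0.27 (adjusted p = 0.301) and H2-Eb1, an MHC class II chain, by 0.46 ± 0.27 (adjusted p = 0.375).

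Lung arrays of both strains were tested in the same way, although the labels do not say whether lung and skin came from the same mice. In lung 37 features were called (0.423%), of which 7 were also called in skin in the same direction and 0 in the opposite one. These 7 were 31.8% of the skin calls and 18.9% of the lung calls. They were Zfp945, Scyl2, Mrps12, Xdh and 3 features without a single symbol. Of the 22 skin calls 17 had the same sign in lung, and 13 had that sign on all 4 lung pairs. The same shares over all features were not worked out, so these counts are a description.

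Zfp945 was at 1.28, 1.27, 1.74 and 1.68 in C3H/HeMs lung and at -0.55, 0.00, -0.36 and -0.25 in A/J lung, a difference of 1.78 ± 0.20 (adjusted p = 0.00938) beside 1.77 in skin. Xdh was at 0.16, 0.19, 1.13 and 0.33 in C3H/HeMs lung and at 1.98, 1.13, 2.47 and 2.12 in A/J lung, a difference of -1.47 ± 0.23 (adjusted p = 0.0354). Both genes thus had the direction and nearly the size in lung that they had in skin. Scyl2 differed by 1.07 ± 0.15 (adjusted p = 0.0262) and Mrps12 by 0.78 ± 0.10 (adjusted p = 0.0182) in lung.

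For other skin calls the lung gave a different value. Tspan8 stood at 2.06, 1.88, 2.46 and 2.34 in C3H/HeMs lung and at 1.92, 2.02, 2.24 and 2.14 in A/J lung, so it was abundant in lung of both strains and differed by 0.10 ± 0.13 (adjusted p = 0.832). A test of the skin difference minus the lung difference on all 24 arrays, added after the data had been seen, called 19 features (0.217%), 5 of them among the 22. For Tspan8 the skin difference exceeded that in lung by 2.33 (adjusted p = 0.00596). Shisa2 gave -1.65 (adjusted p = 0.0389) and Mup9 gave 4.11 (adjusted p = 0.0448). Mup9 was between -6.29 and -4.11 on all 8 lung arrays, so low that a strain difference in lung may be hidden. Rbp2, Angptl7, Klk1 and Fgfr1op2 were not called in lung (adjusted p = 0.896, 0.506, 0.276 and 0.106), and their skin and lung differences did not pass the test against each other.

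**Figure D5:**
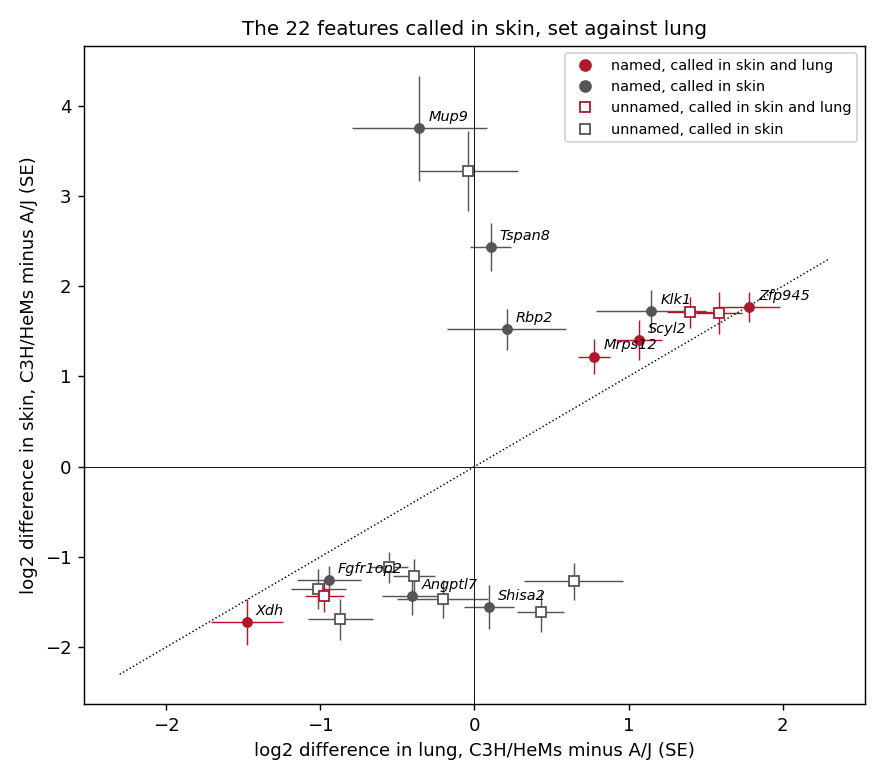
Log2 difference of C3H/HeMs minus A/J in skin (vertical) against that in lung (horizontal) for the 22 features called in skin, with bars of 1 SE; red marks those called in both tissues, open squares those without a single gene symbol, and the dotted line equal differences. Zfp945 and Xdh lie near the line, whereas Mup9, Tspan8, Rbp2 and Shisa2 lie near 0 on the lung axis.

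Of the strain allele list, Hc, Cd59a and Klrd1 were called in lung and not in skin. Hc, complement component C5, for which A/J carries a deficient allele, differed by 1.14 ± 0.16 in lung (adjusted p = 0.0242) and by -0.10 ± 0.27 in skin, where it was 2.60 or more log2 units below the reference on every array of both strains. Cd59a, a complement inhibitor, differed by 1.02 ± 0.11 in lung (adjusted p = 0.00725) and by 0.34 ± 0.21 in skin. Klrd1, an NK cell receptor chain, differed by 1.00 ± 0.13 in lung (adjusted p = 0.0155) and by -0.17 ± 0.31 in skin. The tests of skin minus lung for these genes gave adjusted p of 0.104, 0.186 and 0.137. Gzma, the granzyme A of cytotoxic lymphocytes, went opposite ways, -0.86 ± 0.32 in skin and 1.87 ± 0.18 in lung, and its skin minus lung difference of -2.73 was called (adjusted p = 0.00827). The lung calls depended on few arrays, and with the control and 1 h lung arrays alone limma called 6 features, 1 of them shared with skin. The A/J lung arrays of 12 h and 72 h held 674 and 607 exact zeros and those of C3H/HeMs 183 and 115, against at most 42 on any other array.

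Irradiation was tested as a modifier of the strain difference, by setting the 3 irradiated pairs against the control pair. With limma 0 features were called (0%), with 235 at an unadjusted p under 0.05. The 2 smallest p-values belonged to genes in which the A/J control pool stood apart. Sectm1b, a secreted and membrane protein, was at -1.55, -1.62 and -1.47 in irradiated C3H/HeMs skin and -0.78 in the control, while A/J skin had -0.94, -0.89 and -0.48 after irradiation and 3.57 in the control (adjusted p = 0.284). Insl5, an insulin-like peptide, was at -5.93 in the A/J control and between -2.37 and -0.45 on the other 7 arrays of both strains (adjusted p = 0.284). With a single control pool per strain, the irradiation and that pool cannot be told apart.

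The place of a probe on the array moved with the strain difference. Strain differences of probes 126 numbers apart resembled each other, so 126 was taken as the row length of the array, and in 10 bands of rows the median difference ran between -0.54 and 0.32 on the control pair, -0.60 and 0.26 at 1 h, -0.16 and 0.12 at 12 h, and -0.61 and 0.13 at 72 h. Of the 8 features without a single symbol called lower, 6 lay in the first 2 bands, against 2 of the 11 named genes called. With a smooth trend over place removed, 49 features were called, 17 higher and 32 lower, and 18 of the 22 remained. Fgfr1op2 (adjusted p = 0.0671), Rbp2 (0.0571) and Shisa2 (0.0579) were lost, and Hlf, Scd1 and Ndufb7 were among those gained.

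The band medians ran over a narrower range on the 12 h pair than on the others. The count of calls was larger without the 12 h arrays and smaller without those of any other time, at 0 without the control, 1 without the 1 h and 7 without the 72 h arrays of all 3 strains. Without the 12 h arrays 449 features were called, 39 higher and 410 lower, with all 22 among them. Of the 410 lower, 312 lay in the first 2 bands, which hold 1874 of the 8750 features. Named were 107 of the 410, against 5908 of all 8750. A mean log2 ratio under -1 over the C3H/HeMs and A/J skin arrays was held by 278 of the 410, against 1586 of all 8750. List members that were not called with all 12 skin arrays and were called without the 12 h arrays included Actc1, Apobec2, Cox6a2, Rpl21 and Rps3a1, which were higher, and Scd1, Cd36, Hlf, Cd6, Gzma, Il2rb, Cr2 and Fmod, which were lower. With the place trend removed as well, 44 were higher and 270 lower, and 206 of the 270 had a mean log2 ratio under -1. The part of array place in these calls beyond the trend removed, and that of low ratios, was not tested.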

How the data were processed

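The authors deposited, for each of 24 two-colour arrays, a table of log10 ratios of Cy5 over Cy3 against the common reference, made with Agilent Feature Extraction per the submitters' processing notes; its version, background and dye steps are not given in the sources used here. Values stop at plus or minus 2. Per the labels, skin RNA carried Cy5, and lung RNA carried Cy3, so lung ratios were turned in sign. Without scanner intensities, no test of probe signal against background was made.

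Log10 ratios were turned into log2, centred on each array's median and averaged over probes of 1 symbol: of 9275 probes, 6433 had 1 symbol, 381 several and 2461 none. The skin fit (limma 3.58.1 in R 4.3.3, Benjamini-Hochberg over 8750 features) took strain and time on 12 skin arrays, with 6 residual degrees of freedom, and was tested on simulated data. A feature was called at an adjusted p under 0.05, and ± after a difference is its standard error. Lung was fitted likewise.

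Members, the 30 gene lists and the tests were chosen with earlier results of these data known. Named were called genes with a symbol and 1 sign on all pairs (at most 12 each way), up to 4 members of each list with the smallest p, the 3 smallest p of the irradiation term and strain allele genes; further muscle, hair, keratin and lymphocyte genes were named after their values were seen.

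Arrays of 1 time did not deviate together between the strains (correlations -0.00879, -0.204, -0.281 and 0.00955 of their residual deviations), so time serves as a labelled factor of the design and not as a shared animal. Alternatives covered the arrays fitted, the time block, scaling, probe averaging, values at the limit, robust moderation, the muscle and hair scores and single arrays. A smooth trend over array place, arrays left out in pairs of times and the test of skin minus lung were added after seeing the data.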

Additional observations from a re-analysis of the deposited data

Results flagged for a closer look

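In 82 groups of 4 arrays, 7 held an array far from the other 3 by Dixon's test, and chance alone marks about 1 in 20 groups. Among called genes, Scyl2 was 0.99 in the C3H/HeMs control against 1.57 to 1.62 on the other C3H/HeMs skin arrays. Mrps12 was 0.23 in C3H/HeMs at 72 h against 0.88 to 0.97. Angptl7 was 0.17 in the A/J control against -0.25 to -0.18 on the other A/J skin arrays. All 3 kept their side of the other strain.

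The other 4 were mean log2 ratios of gene lists. Macrophage and monocyte genes averaged 0.349 in C3H/HeMs at 1 h against 0.815 to 0.870 on the other C3H/HeMs arrays, and T and NK cell genes averaged -0.589 in the C3H/HeMs control against -0.905 to -0.891. Melanocyte genes averaged 0.0921 in A/J at 1 h against 0.263 to 0.298, and mast cell genes averaged 1.02 in the A/J control against 1.25 to 1.29. The C3H/HeMs control and 1 h arrays were also those with the highest muscle scores, and a link to these list means was not tested.

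The strain difference differed between tissues for 3 named skin calls, by a test of the skin difference minus the lung difference over 24 arrays with limma. Mup9 gave 4.11, Tspan8 gave 2.33 and Shisa2 gave -1.65 on the log2 scale. Mup9 was between -6.29 and -4.11 in lung of both strains, and deposited ratios stop at 6.64 log2 units either way. A strain difference of Mup9 in lung may thus be hidden.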

How the results depend on the processing

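The 11 named calls kept their direction under all 24 alternatives each was run under, but not their side of the threshold. All 11 had the same sign on every pair, so leaving out arrays could hardly turn their direction. Of features called in skin (22, with 10 higher and 12 lower), fitting the 8 arrays alone left 0, the muscle score left 2 (2 higher, 0 lower), both scores left 0, and leaving out the control and 1 h arrays left 0. Calls numbered 46 (33 higher) with quantile normalization and 49 (17 higher, 32 lower) with the place trend removed, and the hair score gave 19 lower. With no replicate block, that is without time, 46 were called, 33 of them lower, and 18 of the 22 were kept. Leaving out 1 array or time gave 0 to 470 calls, 0 to 53 higher and 0 to 417 lower.

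Features 2-fold apart on all 4 pairs (8 higher, 10 lower) became 36 and 71 at 1.5-fold and 4 and 0 at 3-fold, and 2 lower with quantile normalization; on 3 pairs they ranged from 9 to 36 higher and 14 to 224 lower. Lung calls (37) were 0 with its 8 arrays alone, 6 with control and 1 h arrays, 59 with quantile normalization and 6 to 32 without 1 array. Calls shared by skin and lung (7) were 0 with the 8 lung arrays alone, 1 with their control and 1 h arrays, and 1 to 5 without 1 array. The causes of these moves were not tested.

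Removing centring (27 calls), keeping probes single (24), leaving out values at the limit (24) and robust moderation (24) moved the count of skin calls by less than 1.5 times. The muscle list's median changed sign in 2 of 24 alternatives, with the muscle score (-0.01) and without the control and 1 h arrays (-0.30). That of the hair list changed sign in 7, between -0.48 and 0.41, the fit with the hair score (0.01) among them. Each score is the mean of its own list, so adding it sets that list's mean difference to 0 by construction. Those sign changes therefore say nothing about the lists. Irradiation gave 0 calls in each alternative. Other lists also had medians that changed sign, whereas those of the ribosomal, mitochondrial, sebaceous and adipocyte lists kept theirs in all 24. In all, 91 list medians and gene differences moved or were newly called.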

Other observations

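Values outside the comparisons above concern single pools. Ei24, a p53-induced protein of the endoplasmic reticulum, stood at 5.96 in A/J skin at 72 h, while the C3H/HeMs arrays had 0.40, 0.85, 1.55 and 1.17 (strain difference -1.37 ± 0.71, adjusted p = 0.323). Ccl20, a chemokine of epidermis, stood at 4.37, 4.66 and 3.53 in irradiated C3H/HeMs skin and -0.20 in its control, while A/J skin had 3.72, 2.03 and 0.94 after irradiation and 2.83 in its control (irradiated against control pairs, adjusted p = 0.996).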
